A study of Mus musculus with 2 samples.

Results

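The nuclear genes for the subunits of the oxidative phosphorylation machinery, with some of its assembly factors, were followed in double-positive (DP) thymocytes with and without Bcl11b. A gene was taken in where its name in the array files or its current symbol began with Nduf, Sdha to Sdhd, Uqcr, Cox4 to Cox8 or Atp5. These names gave 97 genes of 27591 on the array, read by 141 of 41174 probes. Of them, 83 encode subunits: 36 of complex I, 4 of complex II, 8 of complex III, 18 of complex IV and 17 of complex V. A further 11 encode assembly factors of complexes I and II, and Cox7a2l encodes a factor that joins complexes into supercomplexes. Emc8 and Dmac2l were taken in only through the older array names Cox4nb and Atp5s. The match on current symbols alone added 14 genes, among them Usmg5, now Atp5md.

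RNA was compared on 2 Agilent 2-colour arrays, which the labels call biological replicates 1 and 2. On each array the Cy5 channel held DP thymocytes of genotype Bcl11bF/FCD4Cre/Tcra-/-, and the Cy3 channel held DP thymocytes of genotype TCRa-/-. Cre under Cd4 control acts on the floxed Bcl11b gene from the CD4-expressing stages of the thymus on. All samples lack Tcra, so that their DP cells precede selection, the stage at which the study asked about Bcl11b. The mice were untreated; the labels give no age or strain, nor the number of mice in a sample, how DP cells were isolated or the deleted part of Bcl11b. No Cre or floxed allele is named for the controls, and the dyes were not swapped, so genotype, Cre and dye cannot be told apart in any ratio below. These samples are called deficient and control from here on.

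Oxidative phosphorylation passes electrons from NADH through complex I, or from succinate through complex II, to ubiquinone, then through complex III and cytochrome c to complex IV, which reduces oxygen. Complexes I, III and IV pump protons, and complex V, the ATP synthase, uses the gradient to make ATP. A small set of subunits is encoded by mitochondrial DNA and the others by nuclear genes scattered over the genome, here over 19 chromosomes in the mm8 coordinates of the array files. Several complex IV subunits exist as isoforms, with a form of wide expression and a form found in heart, skeletal muscle and brown fat (Cox6a2, Cox7a1, Cox8b) or in testis (Cox6b2, Cox7b2, Cox8c).

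Depth and identity of the samples were checked first. Between 50.5% and 56.5% of spots were well above background in any channel, the mark that the scanner software gives a spot clearly brighter than its background, and 14921 genes were tested. Bcl11b was read by 2 probes at chr12:108363444-108363503 and chr12:108358529-108358588 (mm8). Their log2 ratios of deficient over control were -1.37 and -1.40 on replicate 1, and -2.16 and -0.28 on replicate 2, lower in the deficient cells throughout. All 10 DP markers (among them Cd4, Cd8a and Rag1) passed the filter, with 3 higher and 7 lower on both arrays and median ratios of -0.14 and -0.19. Their processed signals summed to 270036 and 234717 in the deficient samples and 257865 and 225278 in the controls. Dntt alone had 101833 and 87490 against 45473 and 44308, and without it the sums were 168203 and 147227 against 212391 and 180970, lower in the deficient samples. Markers of other cells differed too. The 4 stromal or endothelial genes that passed (Dcn, Col1a1, Col3a1 and Pecam1) were higher on both arrays, with list sums of 5068 and 1928 against 3111 and 779. Of 6 macrophage genes 3 were higher and 2 lower on both arrays, and of the 2, Itgam passed only through the control channel. Lyz2 had 25054 and 28033 against 23207 and 8756, and the other macrophage genes summed to 2853 and 1999 against 2088 and 1072. The erythroid genes Hba-a1 and Alas2 were lower on replicate 1 and higher on replicate 2, and the list summed to 24433 and 43475 against 39749 and 9957. B cell genes summed to 555 and 309 against 1108 and 331, and thymic epithelial genes to 2425 and 978 against 2765 and 837, lower in the deficient sample of replicate 1 in both lists. Their part in the ratios of the oxidative phosphorylation genes was not tested.

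Of the 97 genes, 94 passed the filter on dim probes (a probe well above background in the deficient or in the control channel on both arrays), and 93 of these were well above background in both channels of both arrays. The exception was Cox8b, which passed only through the deficient channel, where it is high. The 3 that did not pass were Cox4i2, Cox7b2 and Cox8c. The brightest kept probe stood for its gene. Ratios are given as log2 of deficient over control after normexp background correction and loess normalisation, with a moderated SE from limma over n = 2 arrays, so the number of arrays limits every statement on precision.

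As a group the genes lay close to no difference. Their median ratio was 0.01, with 0.09 on replicate 1 and -0.02 on replicate 2, beside -0.00, -0.02 and 0.01 for all genes tested. Of the 94, 37 (39.4%) were higher in the deficient cells on both arrays, against 36.4% of all genes, and 26 (27.7%) were lower on both, against 38.5%. The mean ratio of 68 genes was within 0.25 of 0, that of 9 was at least 0.5, and no gene reached -0.5. None of the 94 passed limma's test at an adjusted p under 0.05, and 0.0% of all genes did. At an unadjusted limma p under 0.05, 19 (20.2%) were higher and 7 (7.45%) lower, against 15.1% and 14.1% of all genes. Cox8b, which passed the filter only through the deficient channel, is counted in the 37, the 9 and the 19. A ratio of at least 2-fold higher on both arrays was seen in Cox6a1, while 0.818% of all genes had one. Cox8b also counted as such, but through a control signal on replicate 2 that was not well above background. A 2-fold lower level was seen in none of the 94 (0.275% of all genes). Other ways to test gave other counts. Separate-channel limma called 8 genes, all higher (8.51%, against 8.5% of all genes in either direction). These were Cox6a1, Cox6a2, Cox8a, Atp5a1, Atp5b, Atp5g3, Ndufaf6 and Dmac2l. Over all genes it called 1269, of which 703 were higher. Processed signals called no gene of the 94 apart from Cox8b, whose ratio on replicate 2 divides by that dim control, and 0.885% of all genes.

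The genes are among the brightest on the array, and brightness went with the ratio. A mean log2 intensity of 16 or more was reached by 20 of the 94 (21.3%), against 2.20% of all genes. In that brightest band their median ratio was 0.32, and that of all 328 genes in it was 0.36. On both arrays 17 of the 20 were higher, a share of 85.0%, and 74.1% of all genes of the band were. In the band from 14 to 16 the median was -0.04 over 41 genes, beside -0.03 for all 1619 genes of the band, and from 12 to 14 it was -0.06 over 19 genes, beside -0.02. The 9 genes from 11 to 12 had a median of -0.05, beside 0.01. From 11 to 16 the ratios thus centred near 0, and in the brightest band they were shifted as other bright genes were. Below 11 stood only 5 genes: Ndufaf5, Ndufaf6 and Dmac2l from 10 to 11, and Cox8b and Sdhaf3 under 10. Centring each ratio on genes of like intensity gave the 94 genes a median of -0.03 and the 20 bright ones 0.05. Median centring of each array in place of loess, which leaves the bend of ratio with intensity in place, gave the 94 genes a median of 0.45 and called 23 of them, all higher (24.5%, against 6.58% of all genes), on a median of all genes that itself stood at 0.13. Over all genes that setting called 982, of which 877 were higher. The shift also depended on the signals used, and with processed signals the 94 genes had a median of -0.05. Among the bright ones, Ndufa13 then stood at -0.26 and -0.32 and Atp5h at -0.20 and -0.35. Cox6a1, at 0.97 and 1.15, and Atp5b, at 0.61 and 0.86, stayed higher. Whether the shift of bright genes comes from the normalisation, the dyes or the cells was not tested. Dyes and cells cannot be told apart without swapped dyes.

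**Figure D1:**
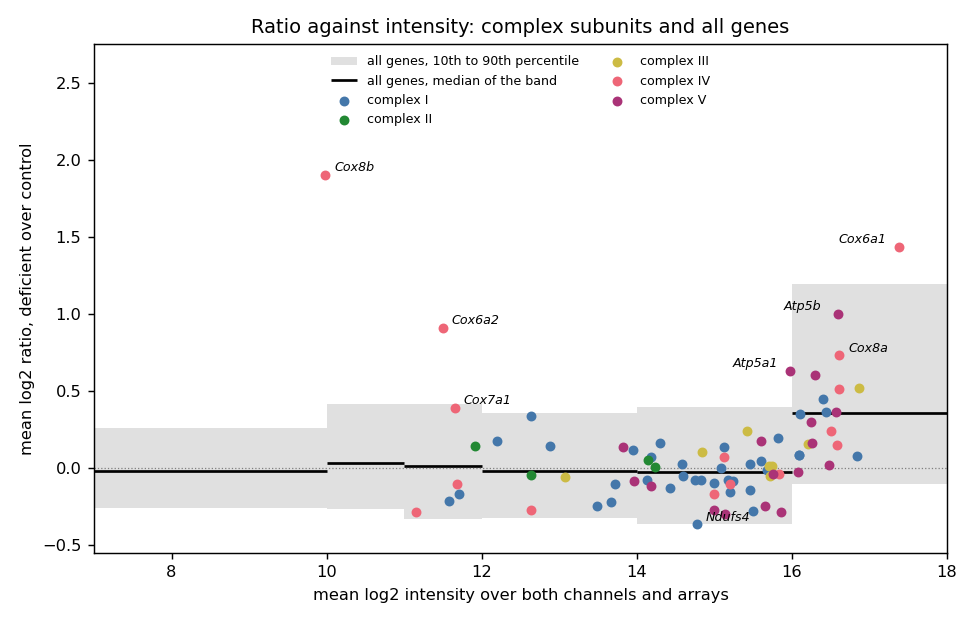
Mean log2 ratio of deficient over control (vertical axis) against mean log2 intensity (horizontal axis) for the 80 subunit genes that passed the filter, coloured by complex. Black lines are the medians and grey areas the 10th to 90th percentiles of all genes in 6 bands of intensity. The median of all genes stands at 0.36 at an intensity of 16 and over, and Cox6a2 and Cox8b (with 1 control sample not well above background) lie far above the medians of their bands.

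Complex I takes electrons from NADH and has the most subunits. The median over its 36 genes was -0.01, with 0.09 on replicate 1 and -0.06 on replicate 2, and 14 were higher and 14 lower on both arrays. The 7 core subunits, which carry the flavin and the iron-sulphur clusters and bind NADH and ubiquinone, had a median of -0.08, and the 29 accessory subunits 0.00. Ndufs1, the largest core subunit, stood at 0.07 and Ndufv1, which binds NADH, at 0.16. Below 0 lay Ndufs3 at -0.13, Ndufs7 at -0.08, Ndufs8 at -0.17 and Ndufv2 at -0.22. These 4 turned positive with median centring.

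Among accessory subunits of complex I, Ndufb11 of the membrane arm was highest. Its signals were 30884 and 34910 in the deficient samples and 24960 and 33384 in the controls, and its mean ratio was 0.45 ± 0.10 (limma adjusted p = 0.106). It is a bright gene, and the groups overlapped. Ndufs4, an accessory subunit that stabilises the NADH-oxidising module, was the lowest of all 94 genes. Its signals were 10657 and 10910 in the deficient samples and 12170 and 16254 in the controls, with ratios of -0.18 and -0.55 (mean -0.37 ± 0.12, limma adjusted p = 0.163). Both deficient samples were below both controls, while the control of replicate 2 stood well above that of replicate 1. Ndufb4, another membrane arm subunit, followed at -0.28 ± 0.10. Ndufs4 and Ndufb4 turned to 0.07 and 0.25 with median centring. The 7 assembly factors of complex I ranged from -0.23 (Ndufaf3) to 0.36 (Ndufaf6), with a median of -0.00.

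Complex II, succinate dehydrogenase, also serves the citric acid cycle, and all its subunits are nuclear. Its 4 genes had a median of 0.03 and lay close together. Sdha, the flavoprotein that oxidises succinate, was highest at 0.14 ± 0.08 (signals 1737 and 1332 against 1480 and 1256). The iron-sulphur subunit Sdhb was at 0.05 and the membrane anchors Sdhd and Sdhc at 0.01 and -0.05. Signals of the groups overlapped for each of these genes. The 4 assembly factors of complex II had a median of -0.05.

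Complex III passes electrons from ubiquinol to cytochrome c. The median over 8 genes was 0.06, with 4 higher and 0 lower on both arrays. Uqcrh, the hinge protein at the cytochrome c docking site, was highest at 0.52 ± 0.11 (limma adjusted p = 0.103), with signals of 43577 and 41796 in the deficient samples and 35428 and 41916 in the controls. The control of replicate 2 exceeded a deficient sample, and after centring on genes of like intensity the ratio was -0.00. The Rieske iron-sulphur protein Uqcrfs1 stood at 0.10, and the core proteins Uqcrc1 and Uqcrc2 at 0.24 and -0.05. Uqcrb, a small subunit near the ubiquinone site, was lowest at -0.06 ± 0.20 and differed between arrays, with 0.29 on replicate 1 and -0.41 on replicate 2.

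Complex IV, cytochrome c oxidase, held the widest range. Over the 15 genes that passed the filter the median was 0.15, with 0.18 on replicate 1 but -0.06 on replicate 2, and with processed signals it turned to -0.08. On both arrays 7 genes were higher and 3 lower, and Cox8b, which passed only through the deficient channel, is among the 7. The isoform groups are given in turn, since the isoform genes include both the highest and the lowest genes of this complex.

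Cox6a1 is the widely expressed form of subunit VIa, which binds the outer part of the enzyme, and Cox6a2 the form of heart and skeletal muscle. Cox6a1 (chr5:115606716-115606775, mm8) had processed signals of 81905 and 61951 in the deficient samples and 41738 and 27841 in the controls. Its ratios were 1.39 and 1.48 (mean 1.43 ± 0.07, limma adjusted p = 0.0651), the lowest p among these genes. Both deficient samples were above both controls. It is the 18th gene on the array in brightness, with raw mean signals of 501317 and 419754 in the deficient channel, none marked saturated. The 34 other genes nearest to it in that order had a median ratio of 1.16, and 9 of them had a higher ratio than Cox6a1. Centred on genes of like intensity, its ratio was 0.32. Cox6a2 (chr7:127996794-127996853) had signals of 1023 and 1074 in the deficient samples and 523 and 493 in the controls, with ratios of 0.84 and 0.99 (mean 0.91 ± 0.08, limma adjusted p = 0.0706). Its groups did not overlap either. Its intensity lies in the band from 11 to 12, where all genes had a median of 0.01, and its ratio stayed at 0.91 after centring on genes of like intensity.

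Cox8a is the widely expressed form of subunit VIII, Cox8b the form of heart, skeletal muscle and brown fat, and Cox8c a testis form. Cox8a (chr19:7282281-7282340) had signals of 38205 and 31792 in the deficient samples and 27328 and 22435 in the controls. Its ratios were 0.74 and 0.72 (mean 0.73 ± 0.07, limma adjusted p = 0.0719), or 0.39 after centring on genes of like intensity. Cox8b (chr7:140750273-140750332) had signals of 1163 and 153 in the deficient samples and 79.4 and 10.4 in the controls. The signal of the control on replicate 2 was not well above background, so Cox8b was measured in 1 of 2 control samples. Its ratio was 2.56 on replicate 1, where both samples were measured. On replicate 2 it was 1.25, a value that rests on the dim control, and so in part does the mean of 1.90. With processed signals the ratio was 3.87 on replicate 1. On replicate 2 it was 3.88, again over the dim control, on which the mean of 3.88 thus rests in part. Both deficient samples exceeded both controls, and the deficient sample of replicate 1 stood far above the other 3 samples. Cox8c had signals between 7.40 and 9.98 and was not well above background in any sample.

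Cox7a1, the heart, muscle and brown fat form of subunit VIIa, had signals of 1513 and 747 in the deficient samples and 782 and 835 in the controls. Its ratio was 0.86 on replicate 1 and -0.09 on replicate 2, so the mean of 0.39 ± 0.26 rests on replicate 1. Cox7a2, the widely expressed form, was at 0.15 and -0.36, with a mean of -0.11, and the supercomplex factor Cox7a2l at 0.08. Cox4i1, the main form of subunit IV, stood at 0.15 ± 0.08, but at -0.17 with processed signals, and the lung form Cox4i2 was not well above background. Cox5a and Cox5b, which sit on the matrix side, were at 0.51 ± 0.08 and 0.24 ± 0.08. Cox5a is a bright gene whose groups overlapped, and its ratio was 0.18 after centring on genes of like intensity. Cox5b turned to -0.08 with processed signals. Cox7b stood at -0.17 and its testis form Cox7b2 was not well above background.

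The subunit VIb genes were lower. Cox6b1, the widely expressed form, had signals of 1497 and 1614 in the deficient samples and 1833 and 2004 in the controls (mean ratio -0.27 ± 0.07, limma adjusted p = 0.126). Cox6b2, the testis form, had 711 and 561 against 894 and 747 (-0.28 ± 0.07, limma adjusted p = 0.120). For both genes each deficient sample was below each control. Of 5 testis markers listed, 3 (Prm2, Tnp1 and Odf1) did not pass the filter. Prm1 was higher in the deficient samples, at 1252 and 1447 against 805 and 645, and the other 4 summed to 145 and 150.2 against 190.2 and 176. Tnp2, the other that passed, had ratios of 0.01 and -0.09. Their part in the Cox6b2 ratio was not tested. Ndufa4, once counted in complex I and now in complex IV, was at -0.04, and the array held no probe named for Ndufa4l2.

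**Figure D2:**
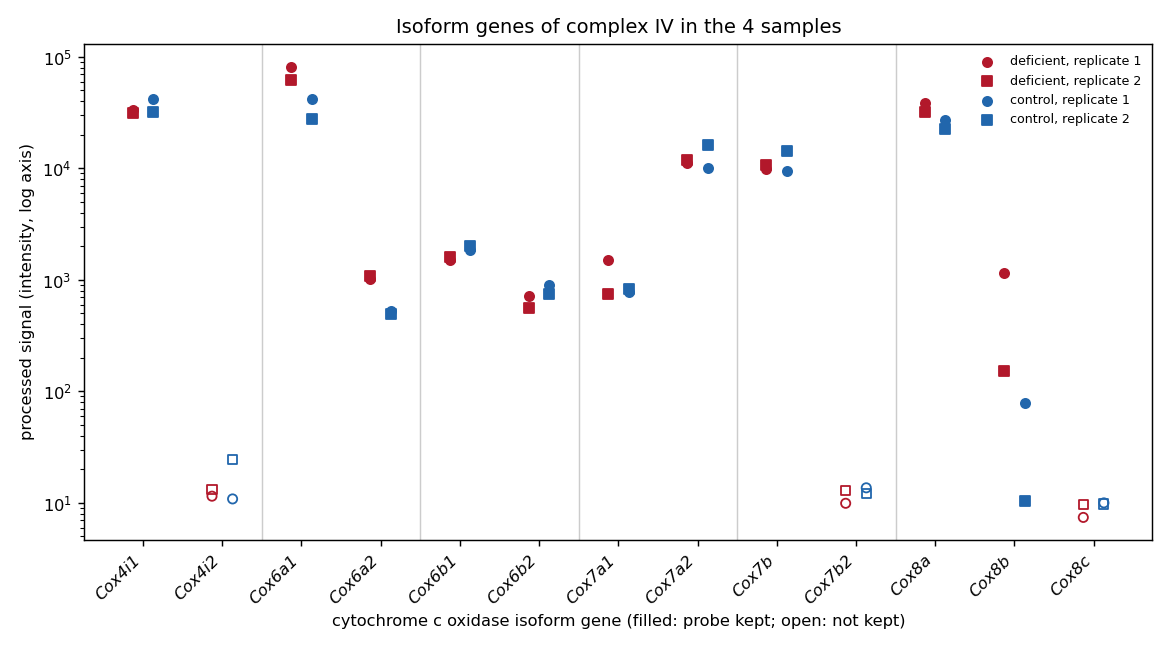
Processed signals (vertical log axis) of the complex IV isoform genes in the deficient (red) and control (blue) samples of replicate 1 (circles) and replicate 2 (squares). Filled symbols are probes that passed the filter. Signals are read within a gene, since probes differ in response: for Cox6a1, Cox6a2 and Cox8a both deficient samples lie above both controls, and for Cox6b1 and Cox6b2 below. Cox8b is drawn higher in the deficient samples too, but it passed only through that channel. Its control of replicate 2 was not well above background.

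The muscle and brown fat forms were set beside markers of those tissues. Ucp1, the uncoupling protein that defines brown fat, had signals of 691 and 84.7 in the deficient samples and 82.3 and 15.7 in the controls, with ratios of 1.96 and 0.50. Cidea, a lipid droplet protein of brown fat, had signals of 1997 and 162 against 252 and 72.2, with ratios of 2.41 and 0.46. Both were highest in the deficient sample of replicate 1, as Cox8b and Cox7a1 were. The stromal genes Dcn, Col1a1 and Col3a1 and the macrophage genes Adgre1 and Cd68 were highest there too. The other genes of those lists that passed the filter, among them Pecam1, Lyz2 and Csf1r, were not. Ucp1 like Cox8b was not well above background in the control of replicate 2. Of the 12 markers of muscle, heart and brown fat, 5 passed the filter. The signals of all 12 summed to 3113 and 632 in the deficient samples and 905 and 637 in the controls. Without Ucp1 and Cidea the sums were 424 and 385 against 571 and 549, lower in the deficient samples. The defining genes of striated muscle Acta1, Actc1, Mb, Myh1, Myh4, Tnnc2 and Ckmt2 did not pass, and the mean ratios of Ckm, Myh6 and Tnnt3 lay between -0.33 and -0.02. A list of 11 adipocyte genes, added after these values were seen, had 6 that passed, with ratios above 0 on both arrays. Of these, Lpl passed only through the deficient channel, with a control of replicate 2 not well above background. Plin1 had a ratio of only 0.02 on replicate 2, where its processed signals were 96.9 against 98.2. The 10 listed genes with a probe had summed signals of 12229 and 2280 in the deficient samples and 3004 and 1072 in the controls. Their part in the ratios of Cox8b, Cox7a1 and Cox6a2 was not tested. In RNA from many cells, fewer cells of a type and less RNA per cell cannot be told apart.

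**Figure D3:**
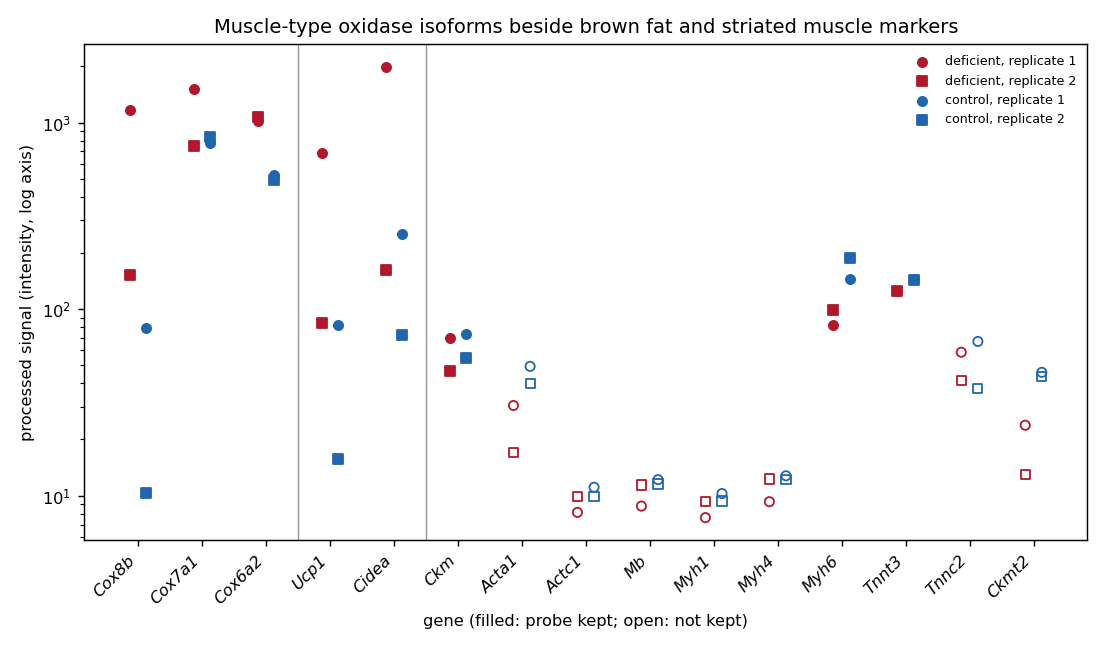
Processed signals (vertical log axis) of Cox8b, Cox7a1 and Cox6a2 (left), of the brown fat markers Ucp1 and Cidea (middle) and of striated muscle and heart markers (right) in the 4 samples, with filled symbols for probes that passed the filter. Cox8b, Cox7a1, Ucp1 and Cidea are each highest in the deficient sample of replicate 1, at 1163, 1513, 691 and 1997. No striated muscle or heart marker shows this, but most of them did not pass the filter. Some stromal and macrophage genes, not drawn here, were also highest in that sample.

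Complex V makes ATP in its F1 head as the c-ring turns in the membrane. Over its 17 genes the median was 0.02, with 0.11 on replicate 1 and -0.02 on replicate 2, and it turned to -0.08 with processed signals. On both arrays 7 genes were higher and 5 lower. Atp5b, the catalytic beta subunit (chr10:127493148-127493207), had signals of 42635 and 37714 in the deficient samples and 27975 and 20776 in the controls, with ratios of 0.90 and 1.10 (mean 1.00 ± 0.09, limma adjusted p = 0.0706). Atp5a1, the alpha subunit (chr18:77986481-77986540), had signals of 28748 and 25682 against 21566 and 17869 (mean 0.63 ± 0.07, limma adjusted p = 0.0756). Neither gene's groups overlapped, and after centring on genes of like intensity Atp5b stood at 0.68 and Atp5a1 at 0.50. The gamma subunit Atp5c1 stood at 0.36 ± 0.09, but at 0.08 after that centring, and its groups overlapped. The genes Atp5g1, Atp5g2 and Atp5g3 encode the same mature c subunit behind different import signals. Atp5g3 was at 0.60 ± 0.07, or 0.44 after centring on genes of like intensity, with both deficient samples above both controls. Atp5g1 and Atp5g2 were at 0.14 and 0.18.

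The genes of complex V that were lower on both arrays encode small subunits of the membrane part. Atp5l, subunit g, had signals of 8732 and 11509 in the deficient samples and 11454 and 13665 in the controls (mean -0.30 ± 0.09, limma adjusted p = 0.141), and the groups overlapped. Atp5j2, subunit f, had 14896 and 15740 against 16419 and 23986 (-0.28 ± 0.12), and Atp5mpl, a small proteolipid, 9816 and 10064 against 10013 and 15085 (-0.27 ± 0.16). The ratios of Atp5j2 and Atp5mpl were mostly those of replicate 2, at -0.47 and -0.54, where the control samples were higher. All 3 turned positive with median centring.

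**Figure D4:**
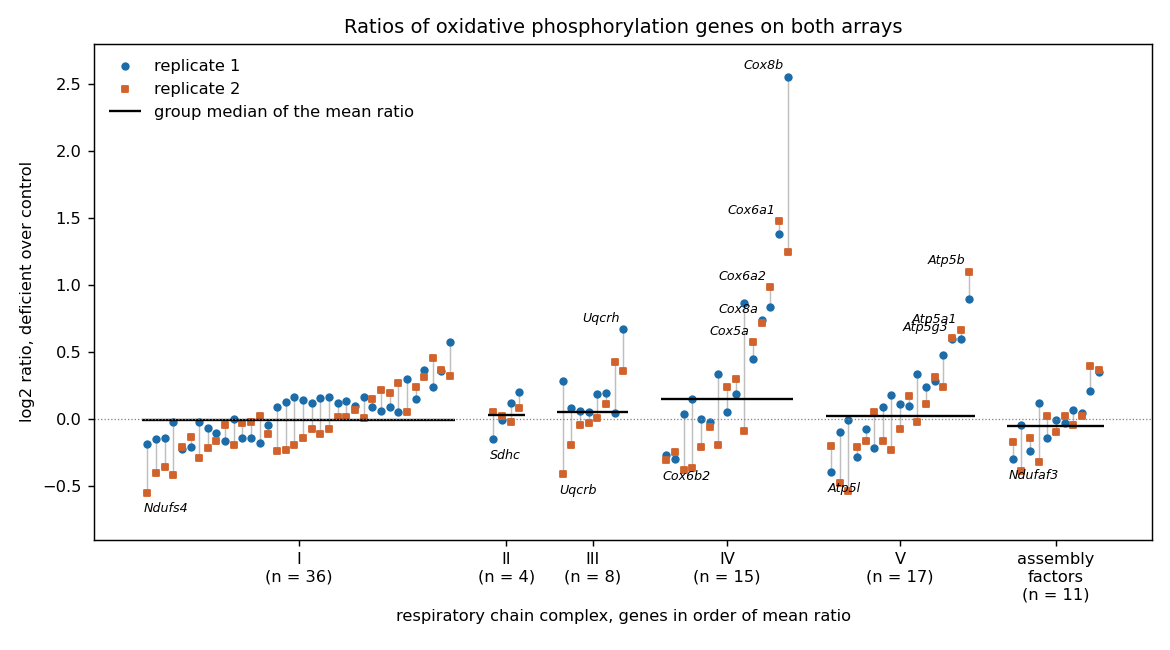
Log2 ratios of deficient over control on replicate 1 (circles) and replicate 2 (squares) for the 80 subunit genes by complex and for 11 assembly factors, in order of the mean, with grey lines that join the arrays and black lines at the group medians. Group medians lie between -0.05 and 0.15, and the genes at 0.5 or more belong to complexes III, IV and V.

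Counted on processed signals, 14 of the 94 genes had both deficient samples above both controls (14.9%, against 25.3% of all genes) and 21 had both below (22.3%, against 32.1%). Both shares were below those of all genes. Cox8b, with a control signal on replicate 2 not well above background, is among the 14. The ratios of the 94 genes on the arrays correlated with Pearson's r = 0.75 across genes, and those of all genes with 0.67. This is a description over genes, which are not independent and share the dye orientation and the bend with intensity.

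Several genes were read by more than 1 kept probe, which shows how far a ratio depends on the probe. Of 26 such genes, 17 had the same sign in all probes, and the median spread between the highest and the lowest probe of a gene was 0.12. The spread was largest for Atp5b, at 0.79. Its probe at chr10:127493148-127493207 gave 1.00, while the dimmer probes at chr10:127488462-127488521 and chr10:127487371-127488049 gave 0.27 and 0.21. With the mean of its kept probes, Atp5b stood at 0.49. Uqcrh had 0.52 at chr4:115564971-115565030 and -0.08 at chr4:115567819-115567878. Atp5a1 had 0.63 at chr18:77986481-77986540 and 0.11 at chr18:77986733-77986794, with signals at the latter of 15870 and 15372 in the deficient samples and 15599 and 14308 in the controls. In 13 of the 26 genes the brightest probe had the highest ratio, in 4 of the 6 whose brightest probe reached an intensity of 16 and in 9 of the other 20. Cox6a1, Cox6a2, Cox8a and Cox8b had 1 kept probe each, so no other probe bears on their ratios.

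**Figure D5:**
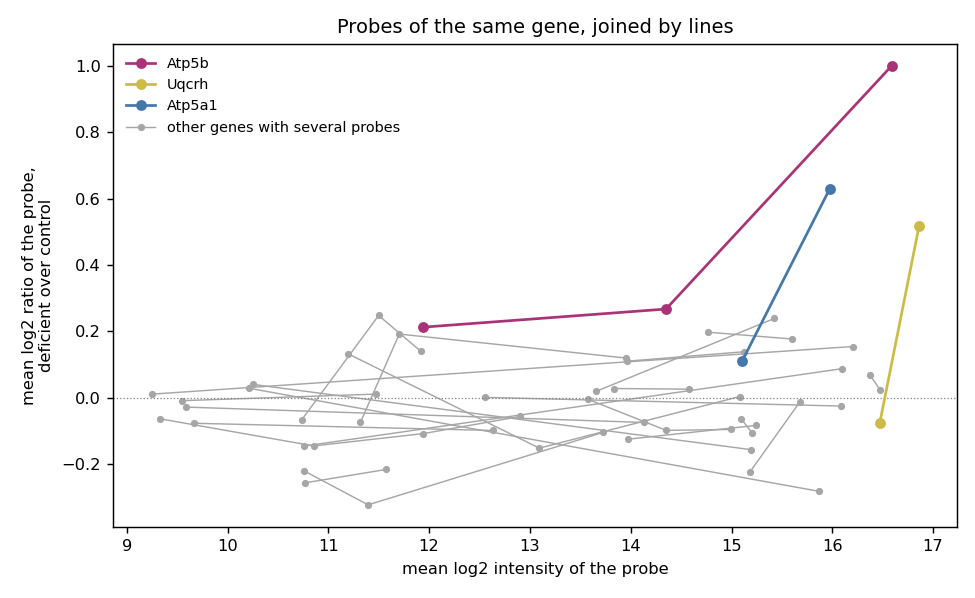
Mean log2 ratio (vertical axis) against mean log2 intensity (horizontal axis) of each kept probe of the 26 genes with more than 1, with lines that join the probes of a gene. Atp5b, Uqcrh and Atp5a1 have the widest spreads, at 0.79, 0.59 and 0.52, and in each the brightest probe has the highest ratio.

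Promoters of the members were searched for motifs linked to respiratory genes: GCATGCGC for NRF1, CCGGAAG for the ETS family that includes GABP, and AAGATGGCG for YY1. The E-box CAGCTG, not chosen for such a link, was searched as well. Both strands were read in windows of 300 bases around the starts of genes from RefSeq (GRCm38.p6). No motif contains another. The windows of 80 of the 97 genes were matched, 85 in all. NRF1 letters were found in 14.1% of them and in 2.71% of all 32851 windows, ETS letters in 24.7% and 8.86%, YY1 letters in 8.24% and 1.40%, and the E-box in 7.06% and 16.3%. The 200 bases before the start are printed for some of the genes described above. The windows of the widely expressed forms can thus be read beside those of the muscle forms. Of the printed genes, Cox7a1 was higher on replicate 1 only. Some genes with higher mean ratios than Cox7a1, such as Atp5a1 and Atp5g3, are not printed. No window was available for Cox6a2. Matches are in capitals, from chr5:115348959-115349158 (minus strand) for Cox6a1, chr19:7217617-7217816 (minus) for Cox8a, chr10:128083107-128083306 (plus) for Atp5b, chr7:30183971-30184170 (plus) for Cox7a1 and chr7:140900447-140900646 (minus) for Cox8b.
Cox6a1: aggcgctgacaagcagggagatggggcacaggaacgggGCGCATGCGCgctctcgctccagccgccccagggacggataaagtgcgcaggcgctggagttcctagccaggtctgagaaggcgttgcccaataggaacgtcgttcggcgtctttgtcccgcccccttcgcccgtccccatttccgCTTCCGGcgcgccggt
Cox8a: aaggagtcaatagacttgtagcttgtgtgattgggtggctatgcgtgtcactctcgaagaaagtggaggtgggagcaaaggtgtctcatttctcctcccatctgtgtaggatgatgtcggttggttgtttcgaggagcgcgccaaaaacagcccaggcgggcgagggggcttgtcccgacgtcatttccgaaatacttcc
Atp5b: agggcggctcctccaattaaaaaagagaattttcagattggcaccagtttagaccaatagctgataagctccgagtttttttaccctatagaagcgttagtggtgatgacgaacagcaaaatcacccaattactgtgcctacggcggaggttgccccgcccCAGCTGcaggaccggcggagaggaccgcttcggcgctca
Cox7a1: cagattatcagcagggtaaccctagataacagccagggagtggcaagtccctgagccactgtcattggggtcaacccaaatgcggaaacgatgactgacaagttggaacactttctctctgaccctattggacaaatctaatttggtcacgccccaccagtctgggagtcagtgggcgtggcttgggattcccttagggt
Cox8b: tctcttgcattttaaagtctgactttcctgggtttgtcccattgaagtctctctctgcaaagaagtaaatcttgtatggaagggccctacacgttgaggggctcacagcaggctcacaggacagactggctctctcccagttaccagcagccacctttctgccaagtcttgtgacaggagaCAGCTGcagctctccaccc

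In Cox6a1 the capitals mark an NRF1 match on both strands, which overlap, and an ETS match. The 300-base window of Cox8a held 2 ETS matches, neither of them whole in the 200 bases printed. The 300-base windows held 1 E-box for Atp5b and 2 for Cox8b, of which 1 is whole in the bases printed, and none of these motifs for Cox7a1. A match is a run of letters in the window and no measure of binding.

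Of 72 other nuclear genes of the pathway (carriers, assembly factors and regulators), 66 were tested, with a median of 0.03. On both arrays 28 were higher (42.4%, against 36.4% of all genes) and 21 lower (31.8%, against 38.5%). None passed limma's adjusted test. At an unadjusted limma p under 0.05, 8 were higher (12.1%, against 15.1%) and 3 lower (4.55%, against 14.1%), both shares below those of all genes. The highest were Cox17, the copper chaperone of complex IV, at 1.07 ± 0.22, the outer membrane channel Vdac1 at 0.69 ± 0.35, and the ADP/ATP carrier Slc25a5 at 0.44 ± 0.09. Cox17 and Slc25a5 are bright genes, and Vdac1 was high on replicate 2 only, at 1.34 against 0.04. The lowest were Ttc19, which acts in complex III assembly, at -0.38 ± 0.11, the coactivator Ppargc1b at -0.37 ± 0.20, and the transcription factor Yy1 at -0.30 ± 0.07. Of 13 genes of mitochondrial DNA, 3 were named on the array, with ratios of 1.23 and 0.66 for COX2, 0.93 and -0.15 for CYTB, and 0.69 and -0.05 for ND4L. The array files place the COX2 probe on chromosome 1, not on mitochondrial DNA, and describe the ND4L probe as ND4. All 3 are in the brightest band.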

How the data were processed

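Arrays were read by the authors with Agilent Feature Extraction 9.5.3.1, per the submitters' processing notes. Mean and local background signals were deposited as uncorrected scanner intensity. Processed signals were deposited as intensity values corrected for background and normalised between dyes by that software, and the deposited log ratio is their log10 ratio of Cy5 over Cy3, per the file headers. The deposited value table of the series states no unit, and its values match that log10 ratio to within rounding. Probe positions are those of mm8 in the files, and which exon each probe reads was not analysed here.

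Background was corrected by normexp with an offset of 50. Loess was then run on each array separately, giving control spots a weight of 0. The software was limma 3.58.1 with statmod 1.5.0, run under R 4.3.3. Spots flagged as outliers were left out. A probe was kept where well above background in the deficient or the control channel on both arrays, which left 21539 of 41174 probes. Each of 14921 genes took its brightest kept probe. Current symbols came from the RefSeq gene table (GRCm38.p6) by accession (24496 probes), symbol (6234) or synonym (2386), and 8058 probes kept the array's name.

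The mean ratio over 2 arrays was tested against 0 with limma over all genes, with Benjamini-Hochberg adjustment and a threshold of 0.05. The fit has 1 residual degree of freedom. Both arrays lie on 1 slide, so no slide term could be fitted. The named members were the 6 highest and 6 lowest, the highest and lowest subunit of each complex, core and catalytic subunits, isoform groups, the member with the largest spread between probes, and 3 highest and 3 lowest other pathway genes. Ndufaf3, Ndufaf5, Ndufaf6, Sdhaf3, Atp5md, Emc8 and Dmac2l were named outside this rule, after their values were seen, and so were the genes with printed promoters. The members and lists were chosen with earlier results of these data known. Alternatives were other normalisations, signals, filters, probe rules and a separate-channel test. Nothing says whether the biological replicates are separate mice or pools. The SEs and p-values combine the spread between these samples with a prior spread fitted over all genes (SD 0.117, 2.51 degrees of freedom). For a gene whose 2 ratios lie close together they thus rest mostly on that prior. Single values of some genes are not reported here.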

Additional observations from a re-analysis of the deposited data

How the results depend on the processing

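Ratios of bright genes depend most on the normalisation. With median centring in place of loess, the median of the members was 0.45, of complexes I to V 0.41, 0.36, 0.56, 0.56 and 0.56, and 84 members were higher and 1 lower on both arrays, with 23 called. Under it 15 named members changed sign: Atp5j2 (0.28), Atp5l (0.18), Atp5mpl (0.19), Cox7a2 (0.38), Cox7b (0.30), Ndufa4 (0.52), Ndufb4 (0.25), Ndufs3 (0.27), Ndufs4 (0.073), Ndufs7 (0.35), Ndufs8 (0.016), Ndufv2 (0.097), Sdhc (0.18), Uqcrb (0.20) and Uqcrc2 (0.49). Processed signals and the value table gave medians of 0.059 for complex II, -0.081 for complex IV and -0.079 for complex V, 1 called member each, and negative ratios for Cox4i1 (-0.17) and Cox5b (-0.081). Centring on genes of like intensity gave 0.078 for complex II, -0.17 for Cox4i1 and -0.0034 for Uqcrh. Separate-channel limma called 8 members. The cause of these changes was not tested.

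Leaving out an array gives a value with no test. The median of complex II was 0.038 and 0.059 without replicate 1 and 2, and that of complex IV -0.057 and 0.18. No background correction, no filter on dim probes, both channels well above background and the mean of kept probes moved no median of the members or of a complex by more than the spread between arrays. Chosen after seeing the data, subunits only gave the members a median of 0.023, and leaving out bright genes -0.043. The test is paired by construction, since each ratio sets 1 deficient sample against the control on its own array. The number of arrays and the lack of a dye swap limit every ratio, and for Cox8b 1 control sample was not well above background.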
